A study of Mus musculus with 12 samples.

Results

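B1 is the most numerous short interspersed element (SINE) of the mouse genome, and the data described here are the counts of its genomic copies in RNA and in ribosome footprints of testis. Members were all repeat rows of the count table with class SINE and family Alu, the family to which the repeat annotation assigns B1. There were 573497 such copies among 5138235 repeat copies, and they fell into 16 of the 1554 repeat subfamilies of the table. Testes were taken from C57BL/6 mice at postnatal day 16, either *Mael*+/- or *Mael*-/-. The heterozygotes served as controls and so carry 1 mutant allele themselves. *Mael* encodes Maelstrom, a protein of the piRNA pathway, which silences transposons in the germ line, and its loss lets the retrotransposon LINE-1 (L1) be expressed in meiotic cells. Each genotype gave 3 extracts of whole testis, and from each extract total RNA depleted of ribosomal RNA and fragments protected by ribosomes after micrococcal nuclease digestion were sequenced, 12 libraries in all. The lysates held cycloheximide, which holds ribosomes on mRNA. Whole testis holds Sertoli, Leydig and germ cells of several stages, so that in these samples a change in the share of a cell type and a change of RNA per cell cannot be told apart.

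B1 arose from 7SL RNA, the RNA of the signal recognition particle, which RNA polymerase III transcribes from a promoter inside the gene. A B1 copy carries the same kind of internal promoter, made of an A box and a B box, encodes no protein, and depends on the proteins of L1 to be copied into new places. Most B1 sequence in RNA of a tissue is not made by polymerase III but lies within introns and untranslated ends of longer transcripts of polymerase II. The subfamily names reflect age. PB1 and its derivatives PB1D7 to PB1D11 are proto-B1 monomers, B1F elements are early forms, B1_Mur elements are shared among murid rodents, and B1_Mus1, B1_Mus2 and B1_Mm are the young elements of the genus *Mus*. FAM is a fossil monomer kept in few copies.

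A typical B1 element is shown, to show what such a copy looks like and where the letters of a B box fall in it. It was chosen from the reference genome as the 130-base stretch that shared the most 12-base words with the other B1-like stretches of chromosome 19 (GRCm38, chr19:37245468-37245597, plus strand, outside annotated RefSeq genes). These stretches were found by alignment to the 7SL RNA gene. The counted copies have no coordinates in the table, so that the sequence is not tied to a counted copy. Capitals mark the match to the B box letters GTTCNANNC, searched on both strands.

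B1-like: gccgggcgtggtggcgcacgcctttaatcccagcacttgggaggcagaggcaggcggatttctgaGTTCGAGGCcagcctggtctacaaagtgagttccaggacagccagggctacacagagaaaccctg

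The B box letters lay at bases 66 to 74 of the B1-like sequence, and they were present in 1060 of the 1526 B1-like stretches found in this way (69.5%). Of all 130-base windows of chromosome 19, 5.85% held them. A match of letters is a description and not a site of binding.

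The gene counts of a library summed to 13697267 at the lowest and 27462358 at the highest in RNA, and to 7609932 and 13233565 in footprints. *Mael* itself had 5045, 4314 and 3800 counts in the *Mael*+/- RNA libraries and 1, 2 and 0 in the *Mael*-/- ones, as the labels imply. Its footprints numbered 1294, 660 and 863 against 0, 0 and 7. L1Md_T and L1Md_A, the young L1 subfamilies, had log2 fold changes in *Mael*-/- RNA of 2.64 (SE 0.22) for the first and 2.89 (SE 0.23) for the second (edgeR adjusted p = 1.3e-06 for both). The summed level of the 14 pachytene spermatocyte markers, of which *Tcte3* was at 0 in RNA, was 302 to 979 CPM in *Mael*+/- RNA and 238 to 272 in *Mael*-/- RNA. It was 364 to 1275 and 313 to 363 CPM in footprints. *Mael*+/- extract 1 stood apart with the highest values of these markers in both assays. Its 7 early meiotic prophase markers were also high, at 2088 CPM in RNA against 765 and 901 in the other heterozygotes. The part of these cell type differences in the values below was not tested.

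B1 copies together held a small share of each library. Of gene and repeat counts together it was 0.727 to 0.880% in RNA and 0.955 to 1.41% in footprints. In RNA they took 201025, 213516 and 209850 counts in *Mael*+/- replicates 1 to 3 and 134207, 165980 and 226591 in *Mael*-/- replicates, which was 7.92 to 9.51% of the repeat counts of a library. Levels are given as CPM, with the gene counts of the library times its TMM factor as the base. The B1 level in RNA was 8727, 7826 and 7953 in *Mael*+/- and 9713, 8229 and 8245 in *Mael*-/- libraries. The genotypes overlapped, since *Mael*+/- replicate 1 lay above 2 of the 3 *Mael*-/- libraries. The difference in mean log2 CPM was 0.09, beside an SD of 0.08 in *Mael*+/- and 0.14 in *Mael*-/- libraries (n = 3 each). Without *Mael*-/- replicate 1, which had the fewest gene counts and the highest B1 level, it was 0.01, and without *Mael*+/- replicate 1 it was 0.14.

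In footprints the B1 level was 15341, 14613 and 10669 CPM in *Mael*+/- and 13985, 16163 and 13895 CPM in *Mael*-/- libraries. *Mael*+/- replicate 3 was the lowest of the 6, and the other 5 libraries overlapped between the genotypes. The difference in mean log2 CPM was 0.13 (SD 0.28 in *Mael*+/- and 0.12 in *Mael*-/-), and leaving out 1 library moved it between -0.03 (without *Mael*+/- replicate 3) and 0.23 (without *Mael*+/- replicate 1). Without *Mael*-/- replicate 2 it was 0.06. As a share of all repeat counts, which include the L1 counts that were higher in *Mael*-/- testes, the log2 difference of B1 was -0.10 for RNA and -0.0048 for footprints. B2 SINEs, a family derived from tRNA, stood at 13310, 13084 and 12994 CPM in *Mael*+/- RNA and at 17550, 15325 and 14776 CPM in *Mael*-/- RNA, groups that did not overlap. The B2 difference in mean log2 CPM was 0.27, although none of the 5 B2 subfamilies tested passed the threshold (lowest edgeR adjusted p = 0.212). B4 SINEs differed by 0.07 in RNA.

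The subfamilies differed more from each other than between genotypes. B1_Mus1, with 94856 copies, had the highest summed level in RNA, at 1416 ± 56.5 CPM in *Mael*+/- and 1542 ± 80.1 CPM in *Mael*-/- testes (SD, n = 3). B1_Mus2 followed with 1283 ± 33.3 and 1407 ± 67.1 CPM from 70685 copies. PB1D10 stood at 752 ± 72.6 and 781 ± 116 CPM, and B1_Mm at 615 ± 13.6 and 680 ± 23.5 CPM. The B1_Mur subfamilies lay in the middle, from 374 ± 27.3 CPM for B1_Mur3 to 548 ± 43.9 CPM for B1_Mur4 in *Mael*+/- RNA, with B1_Mur2 at 471 ± 43.7 and B1_Mur1 at 502 ± 42.0. B1F was at 514 ± 45.4, PB1D9 at 520 ± 45.9 and PB1D7 at 344 ± 21.9 CPM. The lowest abundant forms were B1F1 (226 ± 22.1), PB1 (211 ± 8.54), B1F2 (204 ± 18.4) and PB1D11 (186 ± 21.5). FAM, with 117 copies, had 1.58 ± 0.46 CPM.

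Much of this order followed copy number. Per 1000 genomic copies, the mean RNA level ranged only from 10.3 CPM for PB1D11 to 19.5 CPM for PB1, with a median of 14.1 over the 16 subfamilies. The table gives no copy lengths, and these levels are therefore per copy and not per base. The value of PB1, the highest, includes the copy PB1_8235 described below, which held up to 36.7% of the PB1 RNA counts of a library. PB1 stood at 202 to 269 CPM in the RNA libraries with this copy and at 151 to 201 CPM without it. Its level per 1000 copies without PB1_8235 was not calculated. The young B1_Mus2 had the next highest level per copy. In RNA, between 18.3% (PB1D11) and 28.7% (B1_Mus2) of the copies of a subfamily had at least 1 count. The young B1_Mm had counts at 26.1% of its copies in RNA but at 15.3% in footprints, the lowest share in footprints of any subfamily. Footprint libraries had fewer gene counts and shorter reads, and the part of this in that share was not tested.

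**Figure D1:**
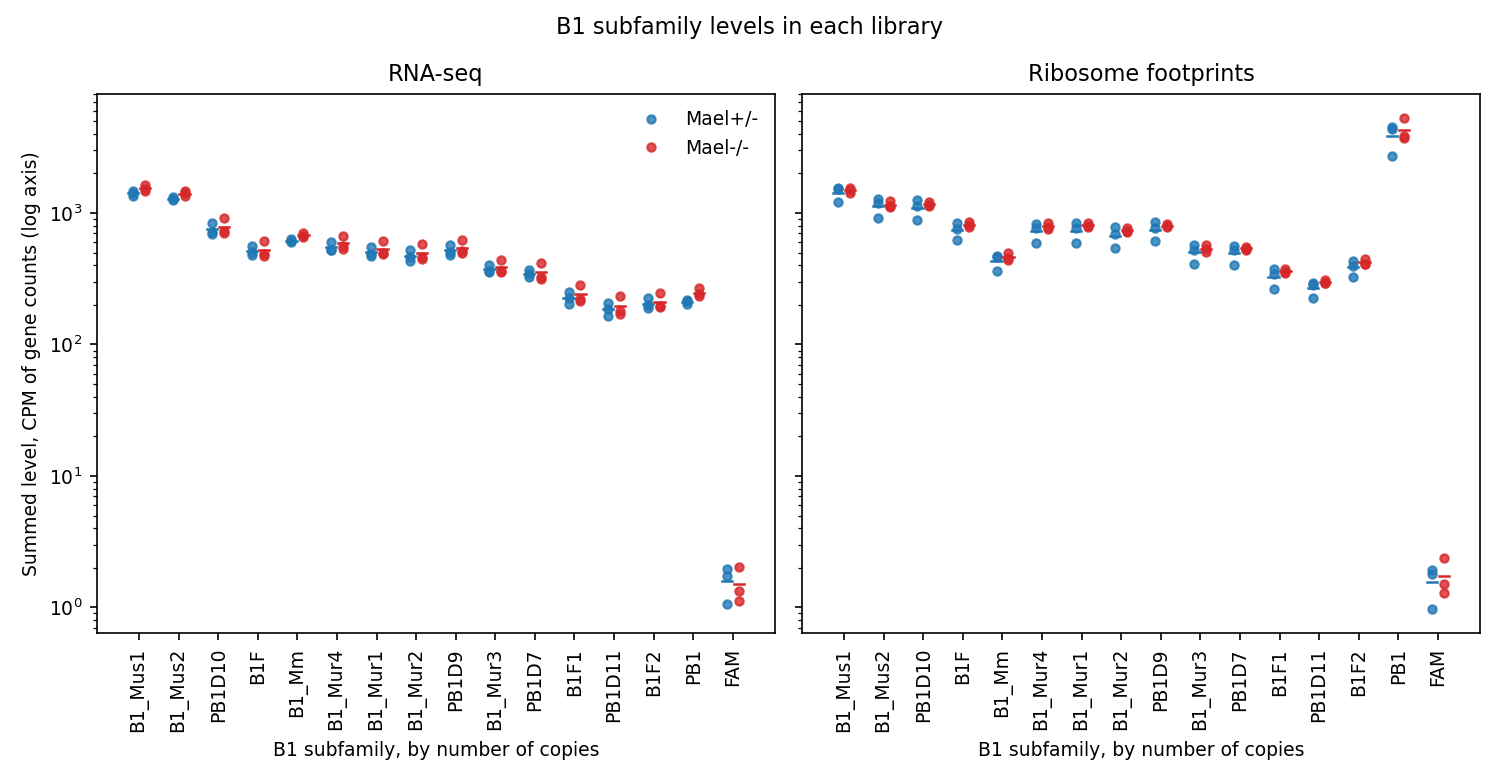
Summed level of each B1 subfamily, in CPM of gene counts on a log axis, in RNA-seq (left) and ribosome footprints (right), with 1 point per library and a line at the mean of the 3 libraries of a genotype. The genotypes lie close together in every subfamily, and PB1 is the one subfamily that stands far higher in footprints (3869 CPM in *Mael*+/-) than in RNA (211 CPM).

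No B1 subfamily was called between the genotypes. In RNA, 0 of 16 passed an adjusted p of 0.05 in edgeR, against 0.898% of the 1114 repeat subfamilies tested, and 0 had an unadjusted p under 0.05. DESeq2 also called 0. The log2 fold changes of *Mael*-/- over *Mael*+/- ran from -0.12 (FAM) to 0.23 (PB1) with a median of 0.07, and 15 of 16 were above 0. Over all repeat subfamilies the median was 0.09, and 68.1% were above 0. The largest, that of PB1, had an SE of 0.16 and a 95% interval from -0.10 to 0.56. It rested on the copy PB1_8235 described below, since without this copy the log2 fold change of PB1 was 0.06. B1_Mm had a log2 fold change of 0.14 (interval -0.15 to 0.44), B1_Mus2 of 0.13 and B1_Mus1 of 0.12. With gene-based scaling the 3 *Mael*-/- RNA libraries lay above all 3 *Mael*+/- libraries for 4 of the 16 subfamilies, namely B1_Mm, B1_Mus1, B1_Mus2 and PB1. All *Mael*-/- libraries lay above all *Mael*+/- libraries for 9.34% of all repeat subfamilies tested. Without PB1_8235 the PB1 libraries overlapped (151 to 177 CPM in *Mael*+/- and 153 to 201 CPM in *Mael*-/-). When library sizes were taken from the repeats themselves, the B1 median moved from 0.07 to -0.04. These 4 subfamilies were the ones left above 0, at 0.04, 0.01, 0.02 and 0.12 (SE 0.11 to 0.14). The change of scaling lowered all 16 by a similar amount. The 4 had the largest values with gene-based scaling, so this is not a separate result. The B1 median also moved with single libraries. It was -0.05 without *Mael*-/- RNA replicate 1 (4 of 16 above 0) and 0.02 without *Mael*+/- replicate 2, but 0.15 without *Mael*+/- replicate 1, 0.13 without *Mael*-/- replicate 2 and 0.12 without *Mael*-/- replicate 3. Outside FAM, the 95% intervals in RNA lay between -0.31 and 0.56.

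Footprints gave a similar picture. Of the 16 subfamilies 0 passed in edgeR, against 1.82% of 1045 tested, 0 had an unadjusted p under 0.05, and DESeq2 called 0. Their log2 fold changes lay between 0.04 (B1_Mus2) and 0.15 (PB1), with a median of 0.13, the same as the median of 0.13 over all repeat subfamilies. All 16 were above 0, as were 73.8% of all subfamilies, but with library sizes from the repeats 9 of 16 were. Without *Mael*+/- footprint replicate 3, the library with the lowest B1 level, 6 of 16 were above 0 and the median was -0.0097. The median was 0.22 without *Mael*+/- replicate 1 and 0.08 without *Mael*-/- replicate 2. In 0 of the 16 did the *Mael*-/- footprint libraries all lie above the *Mael*+/- ones, against 11.4% of all tested subfamilies. L1Md_T and L1Md_A were higher in the same footprint libraries, with log2 fold changes of 2.41 and 2.26.

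**Figure D2:**
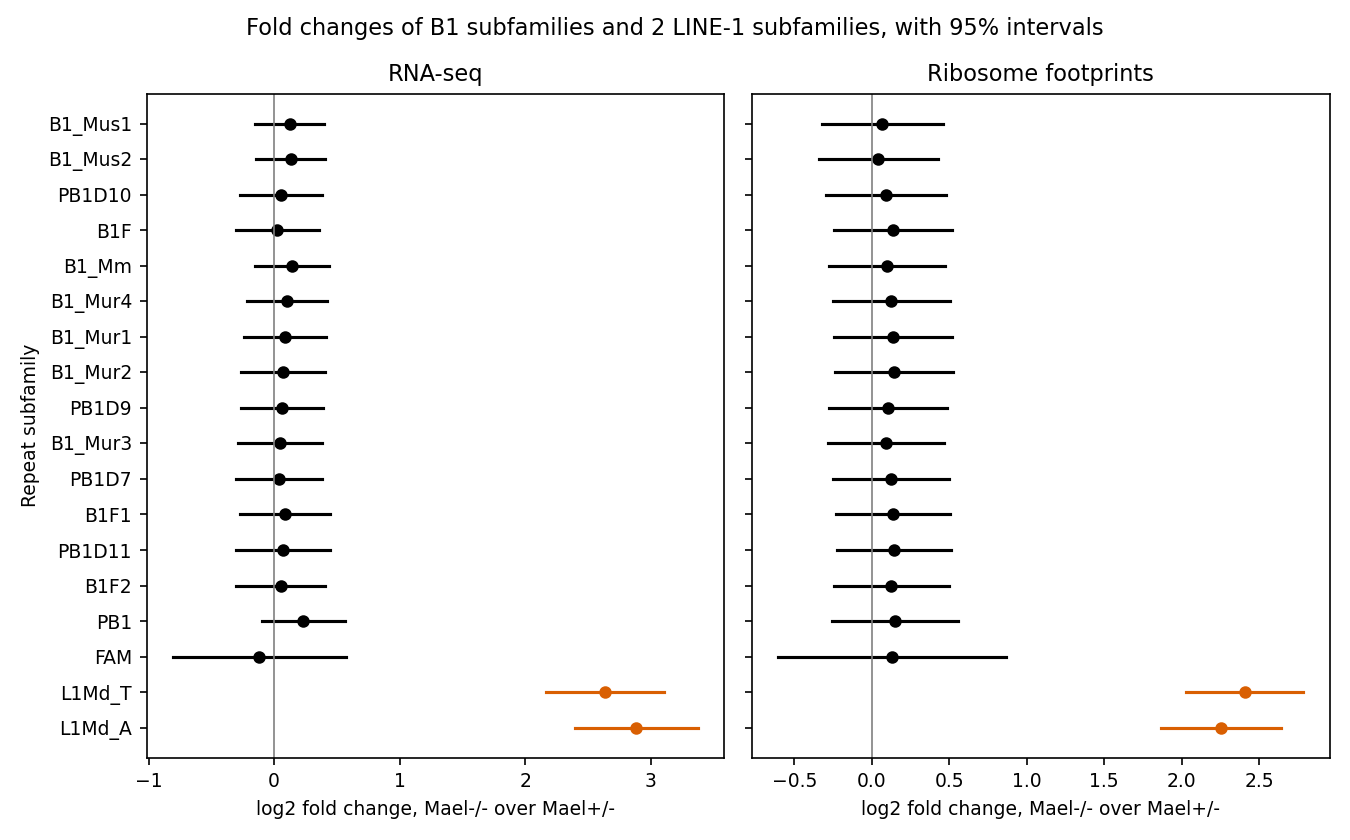
Log2 fold change of *Mael*-/- over *Mael*+/- for the 16 B1 subfamilies (black) and 2 young L1 subfamilies (orange), in RNA-seq (left) and footprints (right), with points for the estimate and lines for the 95% interval of edgeR. All B1 intervals include 0, while L1Md_T and L1Md_A lie above 2 in both assays.

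The next question was whether footprint counts of B1 sequence changed beyond its RNA. Whether the footprint reads at B1 copies came from ribosomes was not tested. Translation efficiency is the term used in the study for footprints relative to RNA, and for B1, which encodes no protein, it is only that ratio. The interaction of genotype and assay was called for 0 of 16 B1 subfamilies, as for 0% of the 996 repeat subfamilies tested, of which 27 had an unadjusted p under 0.05 (0 of them B1). DESeq2 called 0 B1 subfamilies. The estimates ran from -0.09 (B1_Mus2) to 0.25 (FAM) on the log2 scale, and 15 of 16 intervals lay within 1 log2 unit of 0 on both sides.

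Relative to gene counts of the same library, B1 was more abundant in footprints than in RNA. Footprints of genes were counted over coding sequence alone, and the ratio is therefore one to the coding footprints of genes. The log2 ratio of footprint CPM to RNA CPM for all B1 was 0.71 ± 0.25 in *Mael*+/- and 0.75 ± 0.22 in *Mael*-/- extracts (SD, n = 3), a difference of 0.04 that was smaller than either SD. Much of the ratio rested on 1 copy, PB1_8235, described below. The mean over the 6 extracts was 0.73, but 0.29 without this copy and 0.18 as a share of repeat counts. Over 400 repeat subfamilies with a mean of at least 100 counts in each assay, the median log2 ratio was 0.41. B4 had a mean log2 ratio of 0.43 over the 6 extracts and B2 of -1.18.

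The young subfamilies had the lowest ratios. B1_Mm had the lowest mean log2 ratio, -0.54 (-0.76 to -0.35 over the 6 extracts), followed by B1_Mus2 at -0.24 (-0.45 to -0.01) and B1_Mus1 at -0.02 (-0.19 to 0.10). The 12 other subfamilies, leaving FAM aside, had mean log2 ratios of 0.41 or more. This order of B1_Mm below B1_Mus2 below B1_Mus1 below all 12 was found in 6 of 6 extracts, 3 of each genotype. The extracts share their scaling across subfamilies, and the order is given as a description. Footprint fragments were shorter than RNA reads, and how reads that match several copies were assigned is not stated. The part of read length and read assignment in this order was not tested. Without PB1 and B1F2 the older subfamilies lay close together, from 0.41 (B1_Mur4) to 0.58 (B1F). Leaving out the 10 copies with the most counts in each subfamily and assay gave -0.51, -0.33 and -0.20 for B1_Mm, B1_Mus2 and B1_Mus1, and 0.44 to 0.61 for the other 12. Over the 400 repeat subfamilies with a mean of at least 100 counts in each assay, the median log2 ratio was 0.41. B1_Mm had a higher ratio than 9.5% of them and PB1 a higher one than 96.5%.

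**Figure D3:**
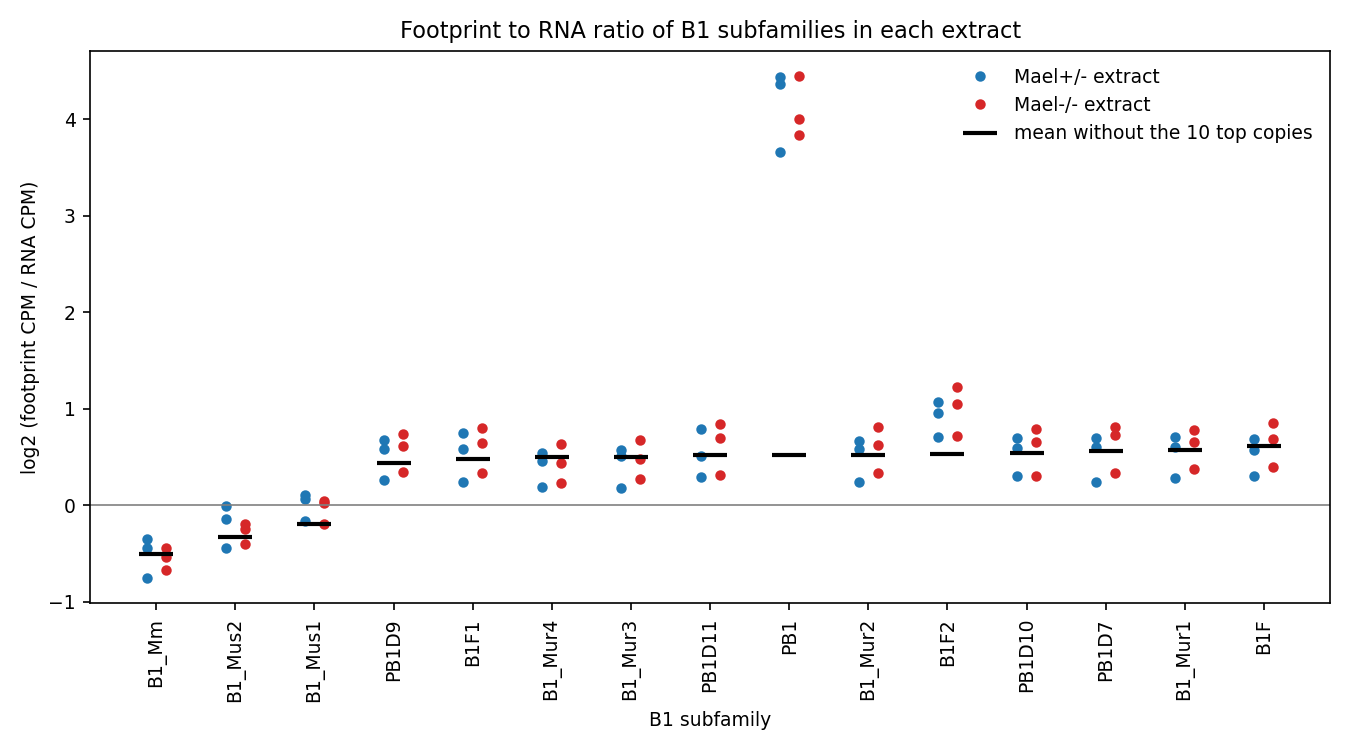
Log2 ratio of footprint CPM to RNA CPM for 15 B1 subfamilies (FAM, with few counts, is left out), with 1 point per extract coloured by genotype and a black bar at the mean over 6 extracts without the 10 copies of highest count. B1_Mm, B1_Mus2 and B1_Mus1 lie lowest in each extract, and PB1 falls from 4.13 to 0.52 once its 10 top copies are left out.

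Counts were spread over very many copies. Of the 573497 copies, 135153 (23.6%) had at least 1 RNA count over the 6 libraries and 115835 (20.2%) at least 1 footprint. Both assays detected 75915 copies, RNA alone 59238 and footprints alone 39920. The median detected copy had 3 RNA counts or 2 footprint counts over 6 libraries, and 31.3% of copies detected in RNA rested on 1 count. Copies of a subfamily can be nearly identical, and how reads that match several copies were assigned is not stated for these libraries, so the level of any single copy is uncertain. The 10 most abundant copies held 3.53% of all B1 counts in RNA but 30.6% in footprints. Most of this difference came from 1 copy. Without PB1_8235 the 10 top copies held 2.98% in RNA and 5.04% in footprints.

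**Figure D4:**
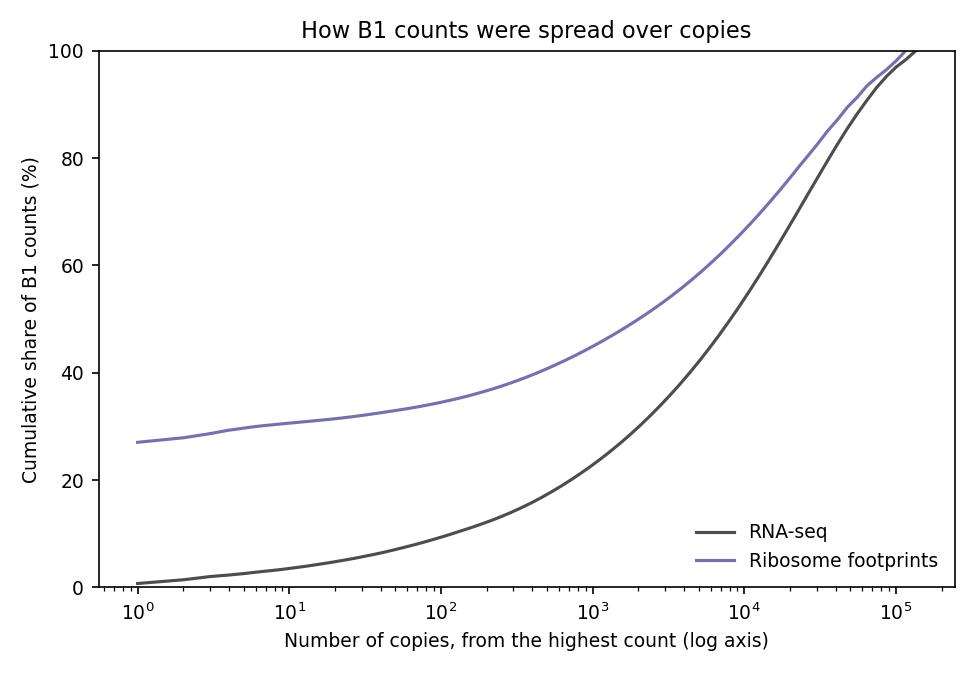
Cumulative share of B1 counts (%) held by the copies of highest count, with the number of copies on a log axis, summed over the 6 RNA libraries (grey) and the 6 footprint libraries (violet). The first footprint copy alone holds 27.0%, the first RNA copy 0.73%, and 10000 copies hold 53.8% of RNA and 66.6% of footprint counts.

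PB1_8235, a copy of the proto-B1 subfamily PB1, led both assays. It had 956, 1388 and 1306 RNA counts in *Mael*+/- and 945, 1785 and 2049 in *Mael*-/- libraries. Its footprint counts were 40007, 32059 and 25595 in *Mael*+/- and 47411, 50205 and 29369 in *Mael*-/- libraries, or 23.4 to 31.0% of all B1 footprints of a library. In CPM it was 47.3 ± 5.06 in *Mael*+/- and 77.1 ± 10.3 in *Mael*-/- RNA (SD, n = 3), and 3629 ± 981 and 4027 ± 855 in footprints. The *Mael*-/- RNA libraries all lay above the *Mael*+/- ones, whereas the footprint libraries overlapped. The share of all repeat copies with such an order in RNA was not counted. The log2 fold change of PB1_8235 in RNA was 0.71 (SE 0.20), with an edgeR adjusted p of 0.0817 over all repeat copies tested, which misses the threshold. In footprints it was 0.15 (SE 0.27, adjusted p = 0.999).

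The ratio of its footprint CPM to its RNA CPM was 46.6-fold to 102-fold over the 6 extracts. It held 92.6 to 94.9% of the PB1 footprints of each library and at most 36.7% of the PB1 RNA counts. Without it PB1 stood at 201 to 275 CPM in footprints and 151 to 201 CPM in RNA, and its mean log2 ratio was 0.60, near the 0.58 of B1F. Without this copy the log2 ratio of all B1 fell to 0.28 ± 0.20 in *Mael*+/- and 0.30 ± 0.18 in *Mael*-/- extracts, and the genotype difference in total B1 was 0.09 in RNA and 0.12 in footprints.

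The other copies of highest count differed in which assay they were seen in. B1_Mus2_39856 was abundant in both, with 1052, 1564 and 1309 RNA counts in *Mael*+/-, 799, 1475 and 1776 in *Mael*-/-, and 834 to 1311 footprint counts per library. B1_Mus1_43680 had 1361, 1199 and 1134 RNA counts in *Mael*+/- and 656, 1147 and 1375 in *Mael*-/- libraries, but at most 6 footprints in any library. B1_Mus2_64516 likewise had 3052 RNA counts in total and 4 footprints, and B1_Mm_28576 had 3351 and 124. None of these 4 was called in RNA, although the *Mael*-/- libraries of B1_Mus2_39856 all lay above the *Mael*+/- ones in RNA CPM (57.8 to 73.1 against 45.7 to 57.3). The share of all repeat copies with that order was not counted. Their log2 fold changes were 0.36 (SE 0.20), 0.08 (SE 0.20), 0.16 (SE 0.19) and -0.00 (SE 0.19).

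The reverse was also seen. B1_Mus1_20288 had 15 to 38 RNA counts per library and 909 to 1304 footprints, with 1263, 1304 and 1084 in *Mael*+/- and 1178, 909 and 1240 in *Mael*-/- libraries. B1F2_15703 had 867, 737 and 796 footprints in *Mael*+/- and 1057, 1093 and 807 in *Mael*-/- libraries against 1 RNA count in all. B1_Mus1_92818 had 3105 footprints in total and 0 RNA counts. The genotypes overlapped in footprint CPM for all 3. Of the 423 B1 copies with at least 100 footprints in total, 258 (61.0%) had at most 3 RNA counts over the 6 RNA libraries. The corresponding share was 46.7% for B2 (85 of 182), 59.2% for B4 (142 of 240) and 56.3% for all repeats (1559 of 2768). The 258 copies came from 15 subfamilies, most often PB1D10 (38 copies) and B1F (31). Both are large, with 65021 and 45099 genomic copies, and the share within each subfamily was not counted. They held 7.38% of B1 footprints, and their summed level was 913 to 1120 CPM in *Mael*+/- and 944 to 1143 CPM in *Mael*-/- libraries. Of the 1062 B1 copies with at least 100 RNA counts, 135 (12.7%) had at most 3 footprints. This was so for 1255 of 2820 B2 copies (44.5%), 4 of 553 B4 copies (0.723%) and 1603 of 7068 copies of all repeats (22.7%).

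Whether single B1 copies changed where the sum over a subfamily did not was tested across all repeat copies. In RNA 2746 B1 copies passed the filter on low counts, out of 175073 with counts in either assay. In edgeR 8 of them were called (0.291%), against 1.61% of the 16710 repeat copies tested. Of the 8, 7 were higher in *Mael*-/- testes (1.51% of all tested copies were called higher) and 1 was lower. Before adjustment, 146 B1 copies (5.32%) had a p under 0.05, against 9.01% of all copies tested. Side by side, 71 of 6156 tested B2 copies and 3 of 1639 B4 copies were called higher, a difference between families that was not tested. DESeq2 called 3 of the 8 (B1_Mm_39834, B1_Mm_36395 and B1_Mus1_39304) and no other B1 copy. Without *Mael*+/- RNA replicate 1, the extract with high meiotic markers, 15 of 3728 tested B1 copies were called, 14 of these higher, while 516 of 22644 repeat copies were called in that fit. Without *Mael*-/- RNA replicate 2 there were 3 of 3864, and 196 of 22940 repeat copies.

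Among the called copies with a mean of at least 20 counts, B1_Mus1_39304 had 11, 19 and 13 RNA counts in *Mael*+/- and 32, 36 and 47 in *Mael*-/- libraries. Its log2 fold change was 1.77 (SE 0.32, edgeR adjusted p = 0.0011), and it was called in 10 of 10 alternative settings. B1_Mus1_44416 had 21, 1 and 8 against 20, 57 and 56 counts, with a log2 fold change of 2.40 (SE 0.47, adjusted p = 0.00342), but DESeq2 gave an adjusted p of 0.607. Its *Mael*+/- libraries varied widely, and only replicate 1 (0.91 CPM) reached the level set by the low-count filter. Without *Mael*+/- replicate 1 the log2 fold change was 3.62. B1_Mur1_14632 had 20, 19 and 21 against 28, 36 and 42 counts, a log2 fold change of 1.16 (SE 0.30, adjusted p = 0.0442). It was called in 3 of 10 settings. It was also the one called copy with enough footprints to be tested, with 3, 7 and 13 in *Mael*+/- and 29, 40 and 14 in *Mael*-/- libraries (log2 fold change 1.64, SE 0.45, adjusted p = 0.166). B1_Mus2_12543 was the copy called lower in *Mael*-/- testes, with 31, 44 and 31 against 10, 7 and 13 RNA counts, a log2 fold change of -1.47 (SE 0.36, adjusted p = 0.0269). It was called in 5 of 10 settings. In CPM the RNA libraries of the genotypes did not overlap for any of these 4, which the rule for naming them required.

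The other 4 called copies had fewer counts. They passed the low-count filter only through the *Mael*-/- libraries, where they were high. Their RNA level was at most 0.39 CPM in *Mael*+/- and at least 0.43 CPM in *Mael*-/- libraries. B1_Mm_39834 had 3, 4 and 2 RNA counts in *Mael*+/- and 14, 22 and 14 in *Mael*-/- libraries, and B1_Mm_36395 had 3, 6 and 3 against 14, 22 and 18. B1_Mus1_23971 (6, 5 and 5 against 15, 13 and 18) and B1_Mus1_33921 (9, 8 and 10 against 6, 28 and 39) completed the set. All 7 copies called higher belonged to B1_Mm, B1_Mus1 or B1_Mur1, and B1_Mus1 is the subfamily with the most copies (94856). The tested copies of each subfamily were not counted, so no share can be set beside this. With 0 to 9 footprints per library 7 of the 8 called copies were too low to be tested in footprints.

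**Figure D5:**
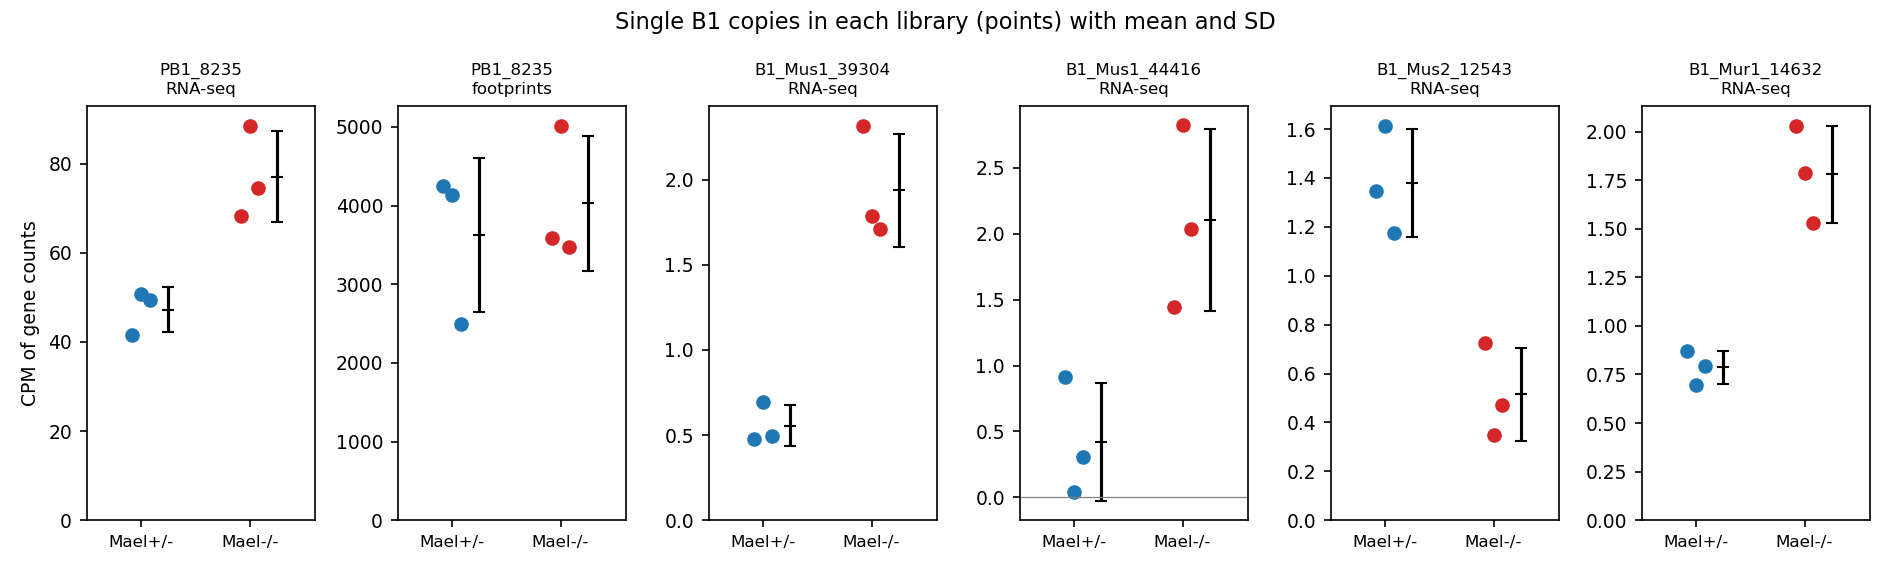
Level of single B1 copies in CPM of gene counts, with 1 point per library and the mean with SD beside them, for PB1_8235 in RNA-seq and footprints and for the 4 called copies with a mean of at least 20 counts in RNA-seq. For PB1_8235 the *Mael*-/- libraries lie above the *Mael*+/- ones in RNA (68.4 to 88.5 against 41.5 to 50.9 CPM) but not in footprints. How many of all repeat copies show such an order was not counted.

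In footprints 961 B1 copies were tested and 0 were called in edgeR, against 0.817% of 5511 repeat copies. An unadjusted p under 0.05 was found for 37, of which 18 were above 0 and 19 below, and DESeq2 called 0. The lowest adjusted p, 0.166, was that of B1_Mur1_14632.

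Genes for the proteins that transcribe, bind or edit B1-like RNA were examined as a list of 41. Of these, 39 were tested in RNA and 0 were called in edgeR, against 0.116% of 14647 genes, while 1 had an unadjusted p under 0.05 (*Srp54a*, a signal recognition particle protein, log2 fold change 0.40, adjusted p = 0.851). The median log2 fold change was -0.04, against -0.01 over all genes. *Srp9* and *Srp14*, whose products bind the Alu domain shared by 7SL and B1 RNA, had log2 fold changes of -0.11 (SE 0.10) and -0.05 (SE 0.10). *Hnrnpc*, a splicing repressor of exons derived from Alu elements, and *Adar*, which edits double-stranded RNA such as paired inverted SINEs, had -0.01 (SE 0.09) and 0.06 (SE 0.10). In footprints 37 were tested and 0 were called, against 0.0593% of 13500 genes, and 0 had an unadjusted p under 0.05. DESeq2 called 0 of the list in both assays. There *Srp14* had a log2 fold change of -0.18 (SE 0.11), *Hnrnpc* of -0.09 (SE 0.11) and *Adar* of 0.08 (SE 0.09). *Srp9*, with 758 to 1640 counts in each RNA library, was listed with 0, 2 and 5 footprints in *Mael*+/- and 4, 9 and 9 in *Mael*-/- libraries and was not tested in footprints.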

How the data were processed

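Extracts of 3 *Mael*+/- and 3 *Mael*-/- testis samples were profiled by RNA-seq and by ribosome footprints. The authors removed footprint reads of ribosomal DNA with Bowtie 1.2.2, aligned the rest to mm10 with STAR 2.6.0c and counted them with featureCounts (Subread 1.6.4). The deposited table holds raw counts for genes and single repeat copies, without coordinates, lengths or strand. The handling of reads that match several copies and of duplicates is not given in the sources used here. The authors' DESeq2 1.24.0 result tables, which hold fold changes and p-values, were not used.

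Here copies were summed by subfamily. Subfamilies, copies and genes were each tested with edgeR 4.0.16 (R 4.3.3) by quasi-likelihood F-tests within each assay, with library sizes and TMM factors from genes, the default filter and Benjamini-Hochberg adjustment over all features, and called at an adjusted p under 0.05. In footprints edgeR found 1 common spread for all subfamilies. Translation efficiency was the interaction of genotype and assay. DESeq2 1.42.0 was an alternative. Totals were described without a test. The procedure was run on counts simulated with a smaller spread than the repeat counts had. That run does not show how many changes of a given size would be missed here. Nothing beyond the labels says that replicates were separate animals, so p-values measure the spread between these samples.

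RNA and footprint libraries of one extract deviated together from their group over 13446 genes in *Mael*+/- testes (r 0.614 to 0.766). In *Mael*-/- testes r was 0.235 to 0.251. Equal numbers across genotypes gave r of -0.01 to 0.22, near the *Mael*-/- values. The assays are paired by extract because the study took both libraries from each extract. The copies carry no coordinates, so 1 reference sequence replaces the planned sequences of named copies, and the sequence it was aligned to is not reported here. Copies named are the 5 of highest count per assay and the called copies whose mean reached 20 counts and whose genotypes were apart in every library. The other 4 called copies are named because they complete the count. Members and gene lists were chosen with earlier results of these data known. The floor of 3 counts and the 100-count minimum were chosen after the counts were seen.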

Additional observations from a re-analysis of the deposited data

How the results depend on the processing

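The absence of called subfamilies in RNA, footprints and translation efficiency, and of called cofactor genes, held with DESeq2, median-of-ratios factors, no filter and each library left out. For subfamilies it also held with repeat-based TMM and without the 10 top copies. In RNA and footprints it held with the replicate number as a block and, for subfamilies, without PB1_8235, a setting chosen after seeing the data. Replicate numbers are not known to pair the genotypes, and the replicate block moved the called B1 copies in RNA from 8 to 13 (10 higher, with all 8 shared) and in footprints left 0. It also put PB1_8235 past the threshold in RNA (adjusted p = 0.0252, against 0.0555 with DESeq2 and up to 0.489 over the other settings, edgeR and DESeq2). With each extract as a block, translation efficiency estimates ran from -0.08 to 0.22 and 0 B1 subfamilies were called, while subfamilies with an unadjusted p under 0.05 went from 27 to 39. The B1 copies called in RNA numbered 3 with DESeq2, 1 when a mean of at least 20 counts was required (which kept 791 B1 copies, 4 of the 8 among them), and 3 to 15 with each library left out. In footprints, leaving out libraries gave 0 to 1.

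Directions near 0 were not stable. With repeat-based TMM, B1F was -0.085 in RNA and B1_Mm -0.029 in footprints. Without the 10 top copies PB1 was 0.10 in translation efficiency. Leaving out 1 library gave -0.10 to 0.10 for B1F, -0.10 to 0.051 for *Srp14* and -0.066 to 0.056 for *Hnrnpc* in RNA. In footprints it gave -0.015 to 0.17 for B1_Mm, -0.053 to 0.28 for PB1 and -0.058 to 0.28 for PB1_8235. In translation efficiency it gave -0.28 to 0.047 for PB1, -0.16 to 0.024 for B1_Mm and -0.0029 to 0.24 for B1F. The difference in total B1 RNA was -0.10 as a share of repeat counts. The mean log2 ratio of footprints to RNA, 0.73 over 6 extracts, was 0.18 as a share of repeat counts, 0.24 without the 10 top copies per subfamily and 0.29 without PB1_8235. The cause of these shifts was not tested beyond what each construction shows. The planned sums over copies outside annotated genes were not run, since the copies carry no coordinates. Depth limits single copies most: only 2746 in RNA and 961 in footprints had enough counts for a test.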

Other observations

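The repeat rows annotated as 7SLRNA, 437 copies of the RNA from which B1 derives, were looked at after the values of B1 were known. They had 1104, 1550 and 1265 RNA counts in *Mael*+/- and 980, 1558 and 2199 in *Mael*-/- libraries, which is 47.9 to 56.8 CPM against at least 70.9 CPM in each *Mael*-/- library, groups that did not overlap. The log2 fold change was 0.58 (SE 0.18) with an unadjusted p of 0.00495 in edgeR, and the adjusted p of 0.249 over all repeat subfamilies misses the threshold. In footprints the counts were 236, 154 and 214 against 263, 291 and 217, and the log2 fold change was 0.18 (edgeR adjusted p = 0.877). Of all repeat subfamilies tested in RNA, 9.34% had all *Mael*-/- libraries above all *Mael*+/- ones, as 7SLRNA had. The single copy PB1_8235, described above, showed the same order, and for single copies that share was not counted.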
